A study of Mus musculus with 2 samples.

Results

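The corneal epithelial cells of dissociated mouse anterior eye segments are described here across both libraries of the study. They were taken as the barcodes with at least 30 Krt12 UMIs per 10000 UMIs, at least 1 Cdh1 UMI, and no UMI of Ptprc or Cdh5. Only barcodes with at least 1000 UMIs and at most 8% mitochondrial UMIs were considered. A UMI, or unique molecular identifier, is a random tag on each captured transcript that lets molecules be counted once. The rule found 1329 cells of 20768 that passed the depth and mitochondrial filters, out of 22941 deposited barcodes. Of these Krt12-high cells, 286 came from the NC-Foxc2-/- library and 1043 from the control library. The cells were chosen by their own counts of Krt12, Cdh1, Ptprc and Cdh5, so the levels of these genes are a description.

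Anterior eye segments had been dissociated and sequenced as single cells in droplets, as 1 library per condition. The NC-Foxc2-/- mice carried both floxed Foxc2 alleles and the Wnt1-Cre transgene, which recombines in the neural crest lineage, and mice with a moderate ocular phenotype were used. The control mice carried both floxed Foxc2 alleles without Cre. Both groups had a mixed strain background. Each library held pooled tissue of 4 to 6 mice, from which the iris had been removed. The age was 3 to 4 wk in the methods and 4 wk in the sample labels. With 1 pooled library per condition there was no test between conditions and no value per mouse, and each difference below is one between libraries. Intervals are exact 95% intervals that cover counting error only.

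The corneal epithelium is a stratified, nonkeratinized epithelium that forms the outer surface of the cornea. It descends from the surface ectoderm, not from the neural crest. It is renewed from stem cells of the limbus at the corneal edge. Basal cells attach to the basement membrane by hemidesmosomes, and their daughters move upward, flatten and build the barrier of tight junctions and surface glycoproteins before they are shed. Keratin 12 pairs with keratin 5 in corneal epithelial cells, whereas keratin 15 marks limbal basal cells and keratins 4 and 13 mark the conjunctiva. ALDH3A1 and transketolase (Tkt) are abundant soluble proteins of the cornea.

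The 300-base windows around the start sites of Krt12, Sprr1a, Col17a1 and F3 are shown because results below turn on these genes. Each runs 5′ to 3′ on the gene's strand, with 250 bases before and 50 after the RefSeq start site in the GRCm38.p6 assembly, which is also called mm10. Capitals mark CACCC or its reverse complement GGGTG, the core of sites bound by KLF factors such as KLF4, and TGANTCA, the core of AP-1 sites, with N for any base. In F3 and Sprr1a a stretch of capitals can join overlapping matches of both.
Krt12, chr11:99422210-99422509, minus strand: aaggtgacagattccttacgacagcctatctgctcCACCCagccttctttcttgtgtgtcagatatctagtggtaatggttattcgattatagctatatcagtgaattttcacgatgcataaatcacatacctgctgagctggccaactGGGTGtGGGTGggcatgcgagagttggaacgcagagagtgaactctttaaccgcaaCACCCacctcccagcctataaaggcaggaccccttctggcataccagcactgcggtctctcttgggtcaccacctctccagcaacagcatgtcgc
Sprr1a, chr3:92485832-92486131, minus strand: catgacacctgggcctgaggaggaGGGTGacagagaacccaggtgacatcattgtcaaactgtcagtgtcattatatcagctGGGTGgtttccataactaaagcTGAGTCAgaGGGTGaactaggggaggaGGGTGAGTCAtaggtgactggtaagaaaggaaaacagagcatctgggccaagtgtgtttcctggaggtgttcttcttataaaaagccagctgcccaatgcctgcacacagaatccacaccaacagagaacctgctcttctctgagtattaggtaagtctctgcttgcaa
Col17a1, chr19:47691993-47692292, minus strand: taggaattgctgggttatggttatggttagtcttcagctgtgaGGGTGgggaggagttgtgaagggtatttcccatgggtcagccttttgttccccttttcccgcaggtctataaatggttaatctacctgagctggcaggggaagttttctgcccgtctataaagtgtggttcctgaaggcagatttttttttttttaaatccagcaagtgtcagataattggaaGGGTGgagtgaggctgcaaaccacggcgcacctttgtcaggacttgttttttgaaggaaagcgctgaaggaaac
F3, chr3:121723287-121723586, plus strand: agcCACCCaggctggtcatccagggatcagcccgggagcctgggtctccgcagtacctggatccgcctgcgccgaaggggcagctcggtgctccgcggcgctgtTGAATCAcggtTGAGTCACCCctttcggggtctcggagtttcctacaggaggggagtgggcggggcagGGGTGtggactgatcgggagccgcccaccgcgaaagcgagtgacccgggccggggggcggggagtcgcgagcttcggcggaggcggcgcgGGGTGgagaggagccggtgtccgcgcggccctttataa

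The CACCC core was frequent in these windows, with 4 matches in Krt12, 4 in Sprr1a, 2 in Col17a1 and 4 in F3. It was in 56.7% of all 27025 promoters of the same length. The TGANTCA core had 2 matches in Sprr1a, 2 in F3 and none in Krt12 or Col17a1, and it was in 7.93% of all promoters. A match describes letters in the window and not a bound site.

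Krt12-high cells were a smaller share of the NC-Foxc2-/- library. They were 286 of 10399 cells there (2.75%, 2.44 to 3.08) and 1043 of 10369 cells in the control library (10.1%, 9.49 to 10.7), a ratio of 0.273. Among cells with Cdh1 and without Ptprc and Cdh5, they were 60.6% (56.0 to 65.0) in NC-Foxc2-/- mice and 64.6% (62.2 to 66.9) in control mice. The share within these Cdh1+ cells was thus much closer between the libraries than the share of all cells. Dissection and dissociation also set how many cells of a tissue enter a library, and their part cannot be told apart from that of the genotype.

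The Krt12-high cells were deeply sequenced. They held a median of 20289 UMIs and 3413 genes per cell in the NC-Foxc2-/- library, and a median of 21337 UMIs per cell in the control library. Their summed counts were 6008036 UMIs in NC-Foxc2-/- mice and 25690756 UMIs in control mice. Both libraries shared 52 barcodes, among which 4 NC-Foxc2-/- and 6 control barcodes were Krt12-high, none in both. A doublet caller marked 18 of 286 (6.29%) and 77 of 1043 (7.38%) of the cells, which were kept.

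The label was checked against markers of the cells that the dissection could hold. Krt12 itself was part of the rule and checks nothing. Aldh3a1, which the rule did not use, was at 8892 counts per 1000000 UMIs (CPM) in Krt12-high cells and 1677 CPM in keratocytes, the cells of the corneal stroma, of NC-Foxc2-/- mice, and at 10976 CPM in Krt12-high cells and 2031 CPM in keratocytes of control mice. The 6 epidermal markers summed to 32.0 CPM in NC-Foxc2-/- and 43.2 CPM in control Krt12-high cells, against 47.8 CPM in NC-Foxc2-/- and 68.4 CPM in control cells that were Cdh1+ with less Krt12. The 9 conjunctival markers summed to 587 CPM in NC-Foxc2-/- and 713 CPM in control Krt12-high cells, against 809 CPM in NC-Foxc2-/- and 4287 CPM in control cells that were Cdh1+ with less Krt12. Of these, Muc5ac, the goblet cell mucin, was at 0 in the NC-Foxc2-/- cells. Among the cells with less Krt12, 1 NC-Foxc2-/- cell and 121 control cells had at least 10 Krt13 or Krt4 UMIs per 10000. In NC-Foxc2-/- mice the conjunctival markers thus had almost no cells with these keratins to be compared with. The keratin gene Krt13 was detected in 2.80% of NC-Foxc2-/- and 12.6% of control Krt12-high cells, and Krt4 in 0.699% of NC-Foxc2-/- and 7.48% of control cells. Of the other conjunctival markers, Wfdc2 was detected in 94.4% of NC-Foxc2-/- and 89.0% of control Krt12-high cells, and Krt18 in 32.2% and 37.9%. The level of Aldh3a1 did not go against the label of corneal epithelium. Markers shared with the conjunctiva were present, some in few cells and Wfdc2 in most.

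RNA of other cells was present in some barcodes. The 9 keratocyte markers, genes of the corneal stroma, summed to 4062 CPM in NC-Foxc2-/- mice and to 4044 CPM in control mice. Most of this came from 15 NC-Foxc2-/- and 73 control cells with over 1% of keratocyte marker UMIs, without which the sums were 528 CPM in NC-Foxc2-/- mice and 338 CPM in control mice. Pericyte and smooth muscle markers summed to 22.6 CPM in NC-Foxc2-/- mice, with Cnn1 and Pln at 0, and to 176 CPM in control mice. Pigment cell markers summed to 4.16 CPM in NC-Foxc2-/- mice, with Mlana, Tyrp1 and Tyr at 0, and to 146 CPM in control mice. Counts without the 2 sub-clusters that stromal, mural and pigment genes led are given with the comparison of the libraries. Called doublets made up 65.1% of the cells of 1 and 47.4% of the other, and no other sub-cluster held any. These sub-clusters held 12 and 16 NC-Foxc2-/- cells and 51 and 98 control cells, which stay in the values below unless stated.

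Foxc2, the targeted gene, was rarely detected in Krt12-high cells. There were 7 Foxc2 UMIs in NC-Foxc2-/- and 30 in control cells, which is 1.17 CPM in either library. In cells without Cdh1 and with low Krt12, Foxc2 was at 7.21 CPM in NC-Foxc2-/- mice and at 19.8 CPM in control mice, a ratio of 0.364 (0.331 to 0.400). In keratocytes, which descend from the neural crest, the direction was the other way, with 9.51 CPM in the library labelled NC-Foxc2-/- and 5.56 CPM in the control library. Whether the counted 3' tags lie within the deleted part of the gene was not tested.

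The Krt12 level per cell differed between the libraries. Its gene lies at chr11:99415666-99422259. The lowest, median and highest cell had 30.7, 90.5 and 473 Krt12 UMIs per 10000 in NC-Foxc2-/- mice, against 31.7, 179 and 714 in control mice. In NC-Foxc2-/- mice 55.6% of the cells had 30 to 100 per 10000, 35.7% had 100 to 200 and 8.74% had 200 or more. In control mice these shares were 18.3%, 39.4% and 42.3%. Few cells lay near the threshold: 7 NC-Foxc2-/- and 10 control cells had 30 to 35 per 10000, and 6 NC-Foxc2-/- and 16 control cells that met the rest of the rule had 25 to 30. As summed counts Krt12 was at 10965 CPM in NC-Foxc2-/- cells and 20781 CPM in control cells, a ratio of 0.528.

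**Figure D1:**
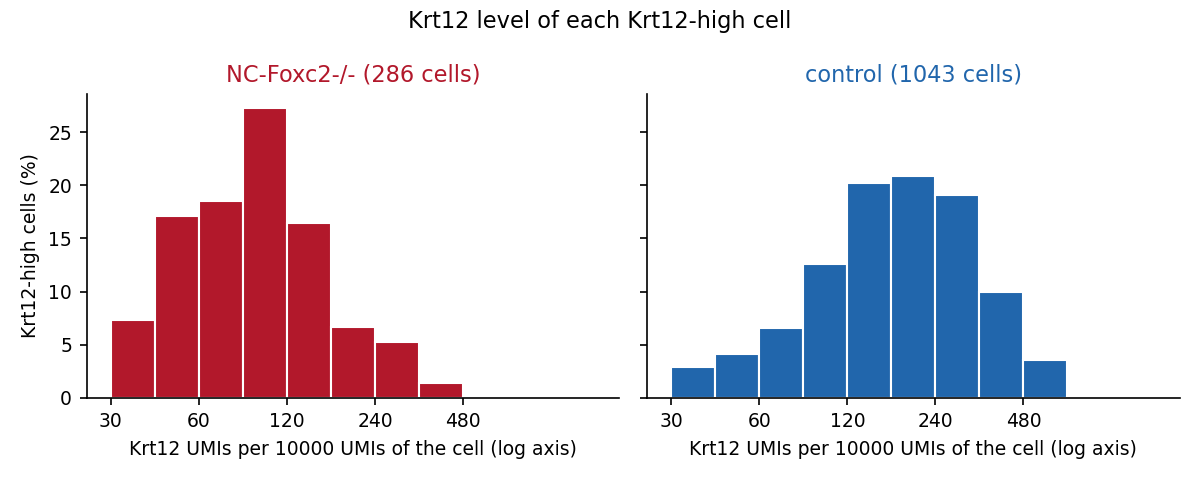
Share of the Krt12-high cells (vertical axis, %) by Krt12 UMIs per 10000 UMIs of the cell (horizontal log axis), for 286 NC-Foxc2-/- cells on the left and 1043 control cells on the right. The NC-Foxc2-/- cells lie lower, with a median of 90.5 against 179 in control cells.

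Many genes set Krt12-high cells apart from the 186 NC-Foxc2-/- and 572 control cells that were Cdh1+ with less Krt12. Of 11887 genes measured there, 324 (2.73%) were at least 2-fold higher in Krt12-high cells in both libraries and 1395 (11.7%) were at most 0.5-fold. The other Cdh1+ cells were not the same mix in both libraries. At a limit of 10 UMIs per 10000, 1 NC-Foxc2-/- and 121 control cells had Krt13 or Krt4. Another 114 and 353 had Krt14 or Krt15, and 71 and 98 had none of these keratins. Keratocyte markers summed to 21274 CPM in the other Cdh1+ cells of NC-Foxc2-/- mice and 8847 CPM in those of control mice. Since Krt12 chose the cells, genes that vary with it are described here and not tested. The highest was Slurp1, which encodes a secreted LY6 protein of the ocular surface. Its level in Krt12-high cells was 69.5 times that of other Cdh1+ cells (56.9 to 85.8) in NC-Foxc2-/- mice and 264 times (218 to 321) in control mice. The water channel gene Aqp5 was 66.4 times higher (49.1 to 92.3) in NC-Foxc2-/- mice and 31.4 times (29.5 to 33.3) in control mice. Aldh3a1 was 8.08 times higher in NC-Foxc2-/- mice and 16.4 times in control mice.

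Other genes of this group were Lypd2, Fam83a, Ly6g6c, Adh6b, Guca1a, Homer2, Dapl1, Tkt, Paqr5, Ptgr1 and Gyg. All were at least 5.02 times higher in Krt12-high cells in either library. Krt15 and Gpha2 went the other way. Krt15 in Krt12-high cells was 0.150 times its level in other Cdh1+ cells in NC-Foxc2-/- mice and 0.0795 times in control mice. Among these other cells of control mice, Krt15 was at 15973 CPM in those with Krt13 or Krt4. It was at 5776 CPM in those with neither but with Krt14 or Krt15, so its ratio is not a limbal contrast alone. Gpha2, which marks limbal basal cells, was at 0.145 times in NC-Foxc2-/- mice and 0.158 times in control mice. The 9 limbal and basal markers, which include both, summed to 20668 CPM in NC-Foxc2-/- Krt12-high cells and 19626 CPM in other Cdh1+ cells there. In control mice these sums were 16309 and 21321 CPM.

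**Figure D2:**
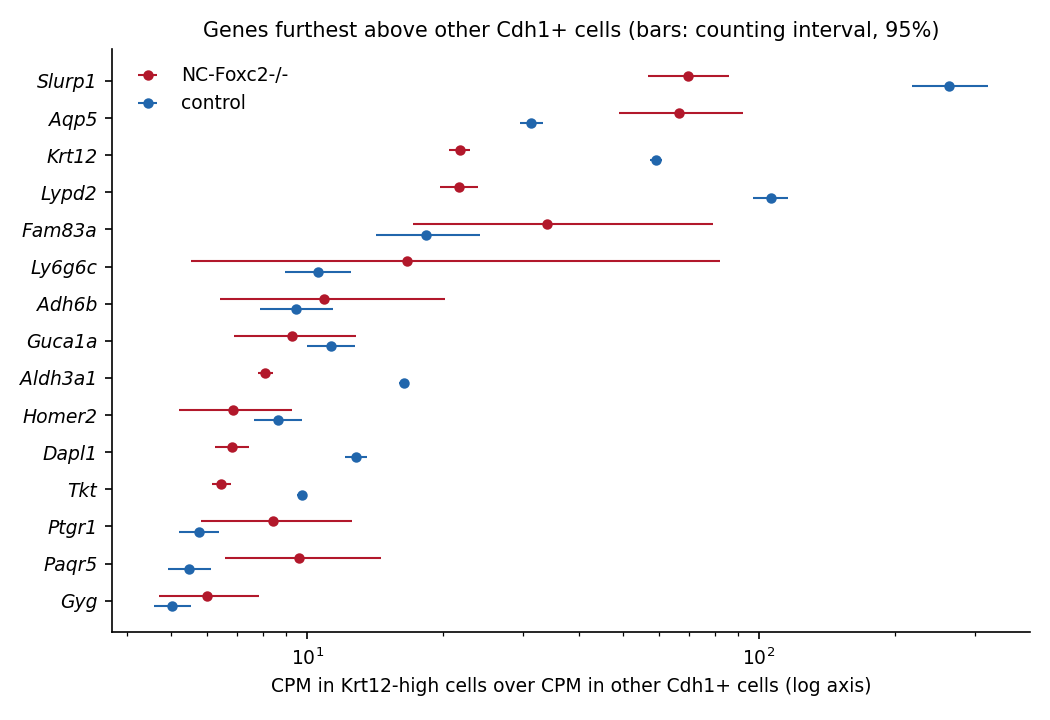
Ratio of CPM in Krt12-high cells to CPM in other Cdh1+ cells (horizontal log axis) for the 15 genes with the highest ratios, with NC-Foxc2-/- above control in each row and 95% counting intervals as bars. Every gene lies above 5 in both libraries, and Slurp1 reaches 69.5 in NC-Foxc2-/- mice and 264 in control mice.

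Some Krt12 UMIs were also found in cells that should lack the gene. In keratocytes Krt12 was at 32.2 CPM in NC-Foxc2-/- mice and at 99.5 CPM in control mice, and a Krt12 UMI was found in 15.3% of NC-Foxc2-/- and 31.2% of control keratocytes, at median depths of 14191.5 UMIs in NC-Foxc2-/- and 15954 UMIs in control keratocytes. These levels stand against 10965 CPM in NC-Foxc2-/- and 20781 CPM in control Krt12-high cells.

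Within each library the Krt12-high cells varied along a gradient of Krt12. Of the 1226 genes abundant enough to rank, with a minimum of 100 UMIs and of 100 CPM, 56 were at least 2-fold higher in cells with 200 or more Krt12 UMIs per 10000 than in cells with 30 to 100, in both libraries. Another 31 were at most 0.5-fold. The low, middle and high bins held 159, 102 and 25 NC-Foxc2-/- cells and 191, 411 and 441 control cells, with median depths between 19712 and 22063 UMIs. These genes were chosen after their values were seen, and they are a description of order within the cells.

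Genes that accompany the upper layers were high in the cells with most Krt12. Mal, which encodes a membrane proteolipid of apical transport, was at 74.96, 379 and 2202 CPM in the low, middle and high bins of NC-Foxc2-/- mice, and at 309, 700 and 3111 CPM in those of control mice. Aqp5 was at 432, 1306 and 3651 CPM in NC-Foxc2-/- mice and at 663, 1669 and 5258 CPM in control mice. Ly6g6c, a gene of the LY6 family, differed most, with 1.204 CPM in the low and 164 CPM in the high bin of NC-Foxc2-/- mice, and 9.77 and 282 CPM in control mice. Plac8, Clic3, Calml3, Gsta4, Slurp1, the tight junction gene Cldn4 and the cornified envelope genes Evpl and Ppl followed the same order in both libraries.

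Several limbal and basal genes, though not all, were high in the cells with least Krt12. Gpha2 was at 624, 133 and 42.5 CPM in the low, middle and high bins of NC-Foxc2-/- mice, and at 896, 242 and 92.2 CPM in those of control mice. Krt14, the keratin of basal cells, was at 4217, 3427 and 2161 CPM in NC-Foxc2-/- mice and at 4654, 4482 and 2530 CPM in control mice. The integrin gene Itgb1 was at 431, 310 and 190 CPM in NC-Foxc2-/- mice and at 262, 226 and 110 CPM in control mice. Igfbp7, Apoe, Thbs1, Stmn1 and the laminin gene Lama3 were likewise lowest in the high bin of both libraries. Col17a1 was nearly flat, with a level in the high bin 0.862 times that in the low bin in NC-Foxc2-/- mice and 0.875 times in control mice. Krt15 was at 229, 265 and 14.8 CPM in NC-Foxc2-/- mice and at 1817, 389 and 453 CPM in control mice. Krt5 rose with Krt12, to 2.56 times in NC-Foxc2-/- mice and 2.39 times in control mice. Called doublets made up their largest share of cells at low Krt12. They were 11.3% of the low bin and none of the other bins in NC-Foxc2-/- mice, and 15.7%, 9.73% and 1.59% of the low, middle and high bins in control mice. The level of Thbs1 in the high bin was 0.0917 times that in the low bin in NC-Foxc2-/- mice, and 0.280 times without the 2 sub-clusters led by stromal, mural and pigment genes. For Igfbp7 these values were 0.0812 and 0.205.

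The comparison of NC-Foxc2-/- with control cells asks how the epithelium differed when Foxc2 was deleted in the neural crest. In the summed cells, genes of squamous differentiation, such as Sprr1a and Mal, were lower in NC-Foxc2-/- mice, and laminin, integrin and collagen genes of attachment to the basement membrane were higher. Much of this moved with the mix of cells. Of 10783 genes with at least 50 UMIs, 625 (5.8%) were at most 0.5-fold in NC-Foxc2-/- cells and 195 (1.81%) were at least 2-fold higher, with a median log2 ratio of -0.06. A ratio here is NC-Foxc2-/- CPM over control CPM. The NC-Foxc2-/- cells were first weighted to the control mix of the 3 Krt12 bins. Then 358 of the 625 and 103 of the 195 genes were still past the 2-fold limit. In total 904 genes were at most 0.5-fold and 297 at least 2-fold higher with this weighting. It raised the 25 NC-Foxc2-/- cells of the high bin from 8.74% to 42.3% of the cells, so these ratios rest heavily on few cells. The erythroid markers Hbb-bs and Hba-a1 went from ratios of 1.15 and 1.17 over all cells to 3.67 and 3.99. With the 8 sub-clusters, groups found by clustering the Krt12-high cells on their expression, weighted to the control mix, 338 and 112 stayed past the limit. However, 2 of these sub-clusters held only 5 NC-Foxc2-/- cells each. All 8 came from the same expression values, so weighting by them does not test the genes that set the sub-clusters apart. Without the sub-clusters led by stromal, mural and pigment genes, 473 and 173 were still past the limit.

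Genes of squamous differentiation were among the 10 lowest ratios. Sprr1a, a precursor of the cornified envelope, was at 296 CPM (283 to 311) in NC-Foxc2-/- cells and 1639 CPM (1623 to 1655) in control cells, a ratio of 0.181 (0.172 to 0.190). Mal was at 375 CPM in NC-Foxc2-/- cells and 1688 CPM in control cells, a ratio of 0.222 (0.213 to 0.232). Asprv1, a protease of the differentiating epidermis, was at 78.9 CPM in NC-Foxc2-/- cells and 577 CPM in control cells, a ratio of 0.137 (0.124 to 0.150). Fewer cells held these transcripts as well. Sprr1a was detected in 27.6% of NC-Foxc2-/- and 53.5% of control cells. When each cell was thinned to 8000 UMIs, which 272 NC-Foxc2-/- and 1018 control cells reached, the shares were 24.6% in NC-Foxc2-/- and 44.3% in control cells.

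The other 7 of these genes were Ly6g6c (0.132), Krt6b (0.158), Plac8 (0.180), the aldehyde dehydrogenase gene Aldh3b2 (0.200), the antibacterial protein gene Pglyrp1 (0.200), Hopx (0.212) and Clic3 (0.215). Reads of Krt6b and of its near-identical copy Krt6a can be hard to tell apart, and Krt6a had a ratio of 0.598. Some rested on single cells in NC-Foxc2-/- mice, where 1 cell held 41.2% of Krt6b and 37.8% of Ly6g6c UMIs. At a control mix of Krt12 bins the ratios were 0.657 for Mal, 0.567 for Hopx, 0.531 for Ly6g6c and 0.380 for Sprr1a, all closer to 1, and 0.136 for Asprv1. With sub-clusters weighted to the control mix Krt6b was at 0.886, Mal at 0.718, Sprr1a at 0.600, Asprv1 at 0.203 and Hopx at 1.01. That mix also put Pglyrp1 at 0.715, Plac8 at 0.599, Ly6g6c at 0.572 and Aldh3b2 at 0.527. Krt12 bins so weighted put Aldh3b2 at 0.536 and Clic3 at 0.528. Krt6b, Asprv1, Hopx, Ly6g6c, Plac8 and Mal were among the top genes of 1 sub-cluster, which held 1.75% of NC-Foxc2-/- and 15.1% of control cells. Its other top genes were Akr1b7, Krt15 and the conjunctival keratin genes Krt4 and Krt13. These low ratios thus lie in part with a sub-cluster that such keratins also led. The sub-cluster weighted values of all its top genes partly reflect how the cells were grouped.

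F3 and Gja1 were among the 10 highest ratios and, like others of these, were also higher in NC-Foxc2-/- keratocytes. F3, which encodes tissue factor and lies at chr3:121723537-121735048, was at 388 CPM (373 to 404) in NC-Foxc2-/- cells and 147 CPM (142 to 151) in control cells, a ratio of 2.65 (2.51 to 2.79). It was detected in 97.2% of NC-Foxc2-/- and 80.8% of control cells, and in 87.5% and 56.1% after thinning to 8000 UMIs. Gja1, the gene of the gap junction protein connexin 43, was at 459 CPM in NC-Foxc2-/- cells and 199 CPM in control cells, a ratio of 2.31 (2.202 to 2.42). F3 had a ratio of 1.88 and Gja1 of 1.24 in keratocytes. Weighted to the control mix of Krt12 bins, F3 had 1.97 and Gja1 1.70.

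Several other genes with the highest ratios were likewise higher in NC-Foxc2-/- keratocytes. Lars2, a mitochondrial leucyl-tRNA synthetase gene, had a ratio of 3.67 in Krt12-high cells and 2.30 in keratocytes. In the same order, Gm42418, which overlaps ribosomal RNA, had 3.34 and 1.91, and AY036118 had 3.13 and 2.14. Ost4 had 2.38 and 2.21, the histone gene Hist1h2ap had 3.29 and 1.88, and Taf1d had 2.57 and 1.22. Of the Hist1h2ap UMIs in NC-Foxc2-/- mice, 69.5% lay in 5 cells.

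**Figure D3:**
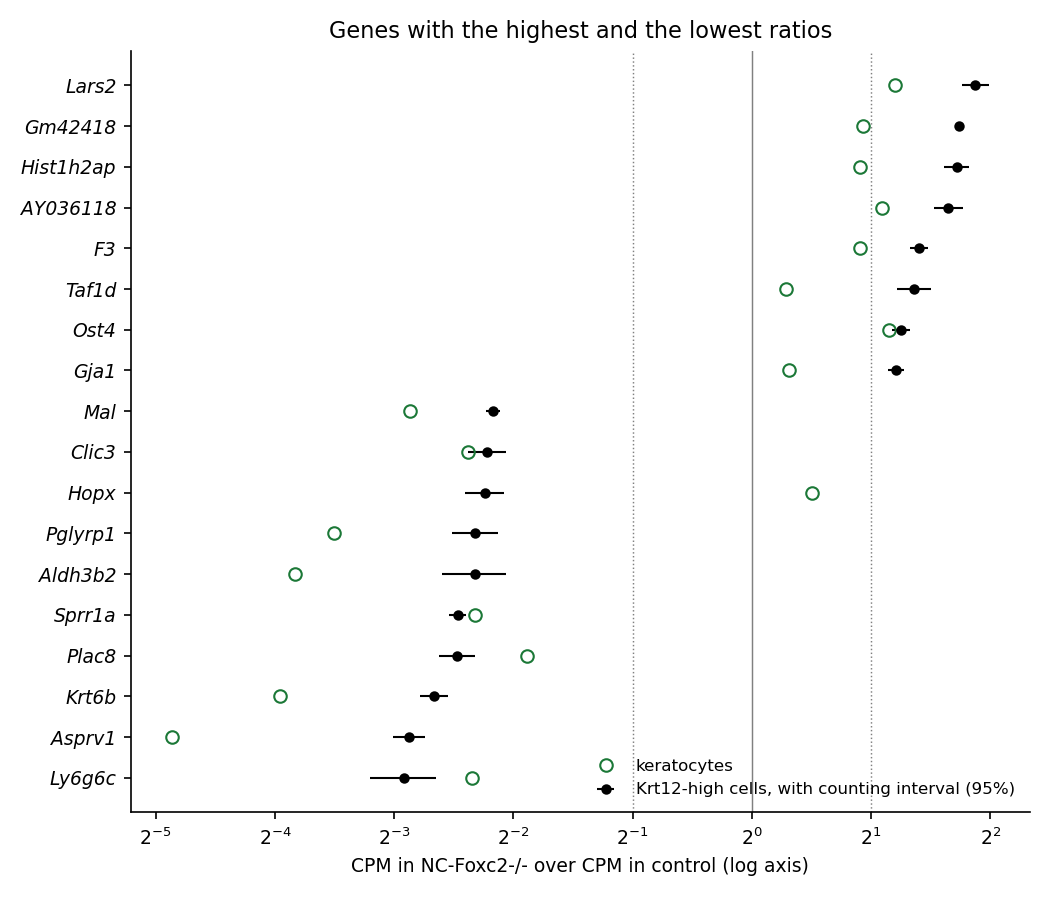
Ratio of CPM in NC-Foxc2-/- over control (horizontal log axis) for 8 of the 10 genes with the highest ratios and the 10 with the lowest in Krt12-high cells (filled points, with 95% counting intervals) and for the same genes in keratocytes (open circles). Lars2 is high in both, at 3.67 in Krt12-high cells and 2.30 in keratocytes, whereas Hopx is at 0.212 in Krt12-high cells and 1.42 in keratocytes.

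Some genes differed in the same direction at every Krt12 level. Col17a1, a transmembrane collagen of hemidesmosomes at chr19:47646344-47692094, was at 1272, 1465 and 1097 CPM in the low, middle and high bins of NC-Foxc2-/- mice, against 688, 825 and 602 CPM in those of control mice. Its ratios were 1.85 (1.76 to 1.94), 1.78 (1.70 to 1.85) and 1.82 (1.67 to 1.98), close to the 1.88 over all cells. F3 had ratios of 2.88, 1.79 and 1.70, and Gja1 had 2.11, 1.56 and 1.59. Klf4, a transcription factor of the differentiating epithelium, had 0.566, 0.609 and 0.622, and Sprr1a had 0.184, 0.416 and 0.397. All of these stayed on one side of 1 in every bin.

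Other genes changed side once Krt12 was matched. Krt5 was at 4180 CPM in NC-Foxc2-/- cells and 5330 CPM in control cells, a ratio of 0.784, but its ratios by bin were 1.04, 1.14 and 1.11. Slurp1 had a ratio of 0.964 over all cells and of 1.44, 1.44 and 1.65 by bin. Gpha2 went the opposite way, with 1.39 over all cells and 0.696, 0.551 and 0.461 by bin. Krt14 had 1.02 over all cells and 0.906, 0.765 and 0.854 by bin. Aldh3a1 did not change side, with a ratio of 0.810 over all cells and of 0.999, 0.895 and 0.921 by bin.

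**Figure D4:**
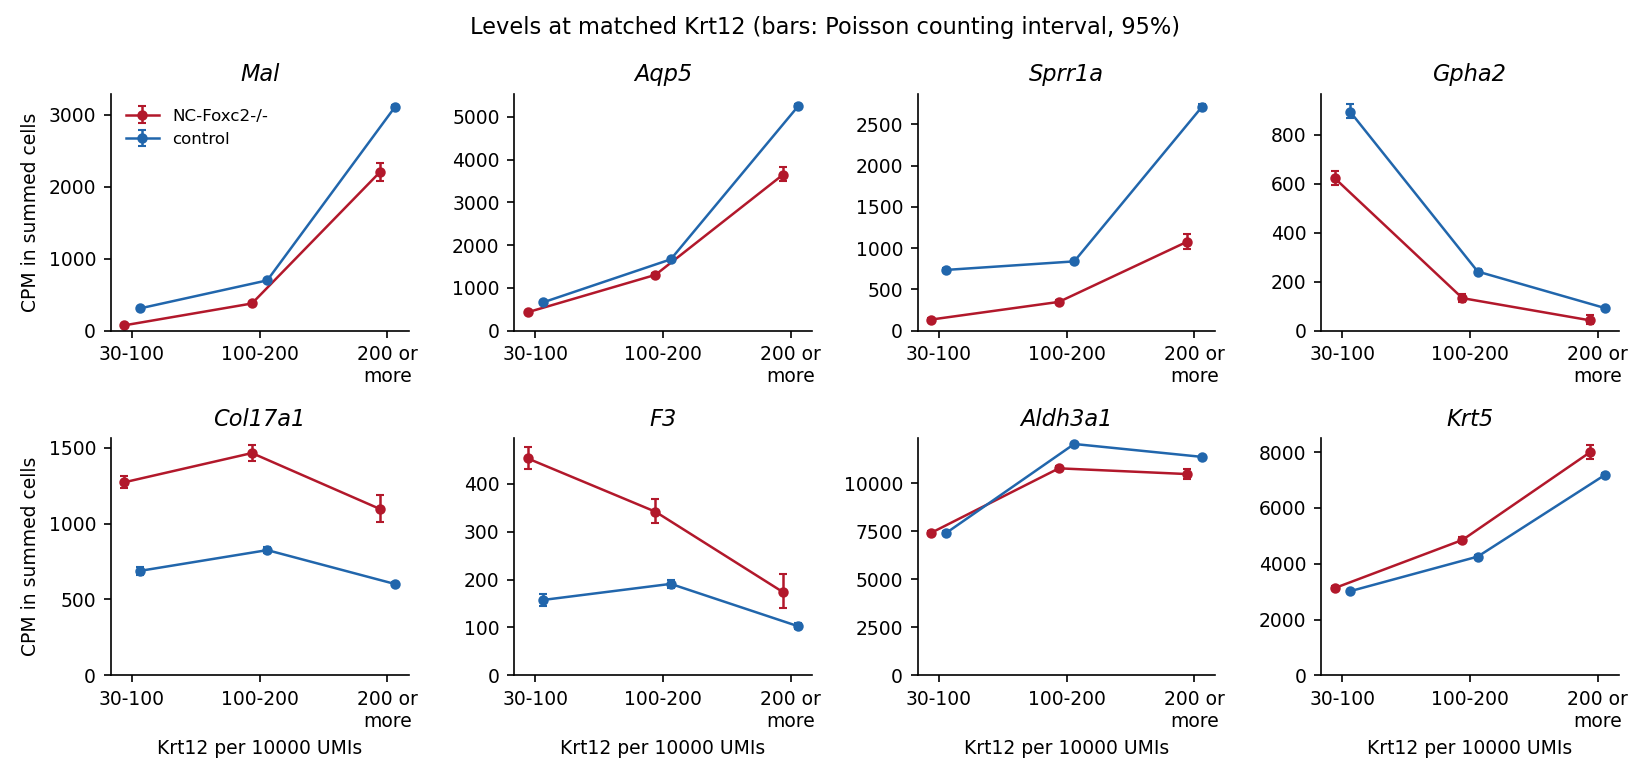
CPM of 8 genes (vertical axes from 0) in summed cells of 3 bins of Krt12 per 10000 UMIs (horizontal axes, low to high), for NC-Foxc2-/- and control cells, with 95% Poisson counting intervals as bars. Col17a1 is about 1.8 times higher in NC-Foxc2-/- cells in every bin, and Gpha2 is lower in NC-Foxc2-/- cells in every bin.

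Gene lists were read against the shares over all genes, 5.8% lower and 1.81% higher. Of 17 keratins measured, 8 were at most 0.5-fold and none was at least 2-fold higher, with a median log2 ratio of -0.92. They were Krt4, Krt6b, Krt7, Krt13, Krt15, Krt19, Krt78 and Krt80. Krt16, the stress keratin, was at 1155 CPM in NC-Foxc2-/- cells and 2180 CPM in control cells, a ratio of 0.530. Conjunctival keratins rested on few cells, since 1 NC-Foxc2-/- cell held 98.8% of Krt4 and 92.5% of Krt13 UMIs. With sub-clusters weighted to the control mix the median of the list was -0.06, and Krt4, Krt13, Krt19 and Krt80 were above 1, at 2.41, 2.12, 2.70 and 1.54, while Krt16 was at 0.960 and Krt78, with 0.108 over all cells, at 0.846. Krt12 bins so weighted put Krt80 at 0.944. Krt4 and Krt19 were also above 1 among cells with at least 100 Krt12 UMIs per 10000, at 3.37 and 1.07.

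Krt15 was at 223 CPM in NC-Foxc2-/- cells and 656 CPM in control cells, a ratio of 0.340, with 0.126, 0.682 and 0.0326 in the Krt12 bins. It was detected in 24.1% of NC-Foxc2-/- and 33.9% of control cells. A single NC-Foxc2-/- cell held 39.5% of its Krt15 UMIs there, and with sub-clusters weighted to the control mix the ratio was 1.69, so its direction depends on that mix.

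Of 25 squamous and keratinization genes, 9 were at most 0.5-fold, with a median log2 ratio of -0.74 (-0.18 with sub-clusters weighted to the control mix, -0.46 with Krt12 bins so weighted). Besides Sprr1a and Krt6b these were Sprr1b (0.0820), Lce3c (0.00838), Klk10 (0.127), Lor (0.116), Cnfn (0.395), Klk8 (0.431) and Flg. Flg had no UMI in NC-Foxc2-/- and 76 in control cells, so it was at least 5.92-fold lower against a floor of 3 counts in that library (a ratio of 0.169). Several of these transcripts were rare: Lce3c was found in 1 NC-Foxc2-/- and 19 control cells, and 1 control cell held 83.2% of Lor UMIs. Ivl, which encodes involucrin, went the other way, with 19.6 CPM in NC-Foxc2-/- cells and 10.9 CPM in control cells (1.80).

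Of the barrier and surface lists, more genes were at most 0.5-fold than at least 2-fold higher, but these moved with the mix of cells. Of 14 desmosome genes Dsg1a (0.387), Evpl (0.440), Ppl (0.468) and Pkp2 (0.384) were at most 0.5-fold, while Dsc3 had 1.21. Of 24 genes of other junctions, the tight junction genes Cldn3 (0.284), Cldn4 (0.471) and Tjp3 (0.345) and the adhesion gene Nectin4 (0.374) were at most 0.5-fold, and only Gja1 was at least 2-fold higher. Cldn4 was at 273 CPM in NC-Foxc2-/- cells and 579 CPM in control cells. At a control mix of Krt12 bins Cldn4 was at 0.992 and Tjp3 at 1.03, and at a control mix of sub-clusters Cldn4, Cldn3 and Nectin4 were at 1.09, 1.15 and 1.10. Of 14 mucin and surface glycoprotein genes 5 were at most 0.5-fold, namely Muc4 (0.144), Muc15 (0.372), Muc20 (0.0679), Ceacam1 (0.221) and Psca (0.0353). Muc4 was detected in 2.10% of NC-Foxc2-/- and 13.5% of control cells. At a control mix of sub-clusters Muc4, Muc15 and Ceacam1 were at 1.05, 1.53 and 1.24, and at a control mix of Krt12 bins Muc15 was at 1.36. The desmosome genes Dsg1a, Evpl and Ppl were at 0.911, 0.787 and 0.913 at a control mix of Krt12 bins, so none of these calls held there. The median log2 ratio of the desmosome list was -0.34, against 0.17 with Krt12 bins and -0.07 with sub-clusters weighted to the control mix. For the mucin list it was -0.33, against -0.30 with Krt12 bins and 0.06 with sub-clusters so weighted.

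Hemidesmosome and basement membrane genes stood on the other side. Of 24 measured, 4 were at least 2-fold higher and 1, Col4a6, was at most 0.5-fold, with a median log2 ratio of 0.50 and only 5 ratios below 1. Lama3 and Lamb3, which encode chains of a laminin that binds the epithelial integrins, had ratios of 2.03 (1.91 to 2.15) and 2.29 (2.05 to 2.56). Lama3 was at 256 CPM in NC-Foxc2-/- cells and 127 CPM in control cells. The integrin genes Itgb1, Itga3, Itga6 and Itgb4 had ratios of 2.02, 1.86, 1.57 and 1.53. In the high Krt12 bin Lama3 was at 66.5 CPM in NC-Foxc2-/- cells and 70.7 CPM in control cells, so it was close between the libraries where Krt12 was highest. At a control mix of Krt12 bins Lama3, Lamb3 and Itgb1 had ratios of 1.31, 1.38 and 1.54, and the median of the list was 0.25. Col4a6 rested on 9 NC-Foxc2-/- UMIs.

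**Figure D5:**
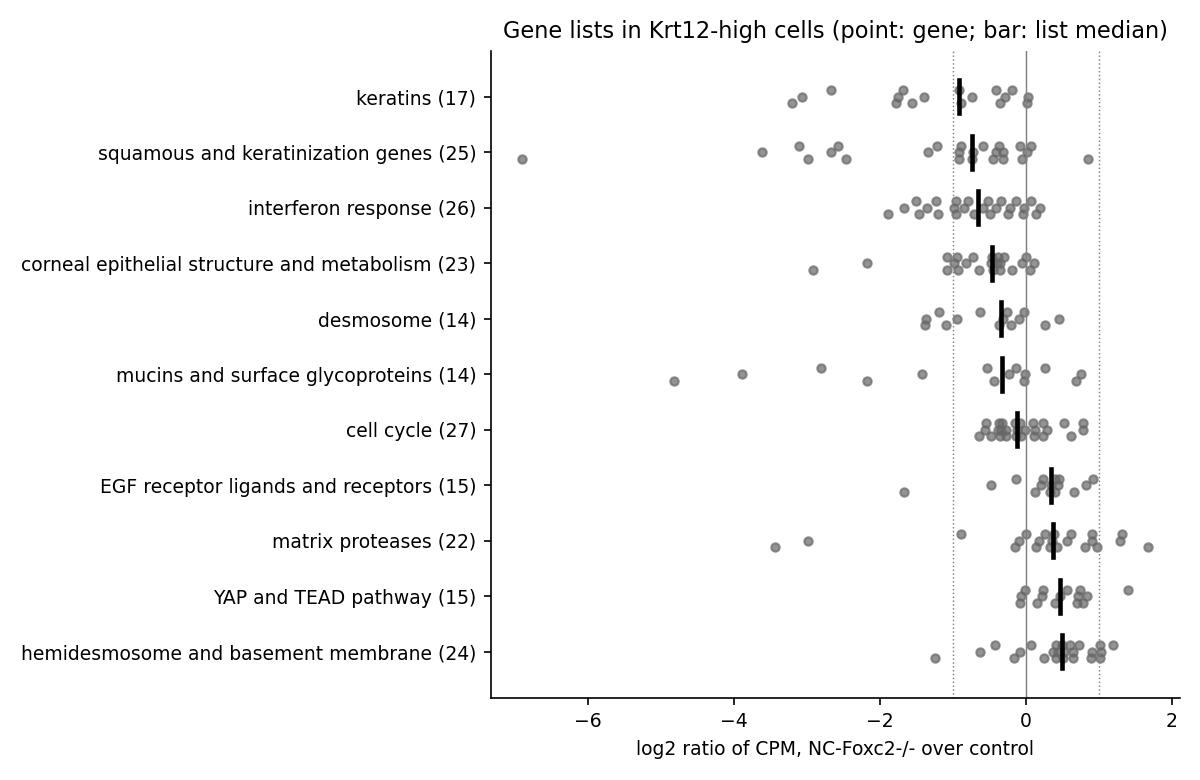
log2 ratios of CPM, NC-Foxc2-/- over control (horizontal axis), for the genes of 11 lists in Krt12-high cells. Each point is a gene, the vertical bar is the list median, and the number of genes measured is in parentheses; medians run between -0.92 for keratins and 0.50 for hemidesmosome and basement membrane genes.

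Among 33 transcription factors of the epithelium, Klf4, Elf3, Elf5 and Grhl3 were at most 0.5-fold and Id2 was at least 2-fold higher. Elf5, with 5 NC-Foxc2-/- UMIs, and Grhl3, with 17, were at 1.63 and 1.57 at a control mix of sub-clusters. Klf4 was at 425 CPM in NC-Foxc2-/- cells and 881 CPM in control cells, a ratio of 0.483 (0.463 to 0.503). Elf3, an ETS factor of differentiated epithelia, was at 83.4 CPM in NC-Foxc2-/- cells and 198 CPM in control cells (0.420, 0.383 to 0.461). Neither was at most 0.5-fold once the mix of cells was matched: Klf4 had 0.608 with Krt12 bins and 0.618 with sub-clusters weighted to the control mix, and Elf3 had 0.618 and 0.850. Id2 had 1.92 with sub-clusters so weighted. Pax6, the eye field factor that the corneal epithelium needs, was at 75.6 CPM in NC-Foxc2-/- cells and 73.1 CPM in control cells, a ratio of 1.03 that rested on the mix of cells. In the low, middle and high Krt12 bins Pax6 was at 44.9, 92.3 and 198 CPM in NC-Foxc2-/- mice, against 73.7, 67.4 and 77.9 CPM in control mice, and with Krt12 bins weighted to the control mix its ratio was 1.77. Trp63, which encodes the basal factor p63, had a ratio of 1.39. The CACCC core stood in 68.8% of the 452 promoters found for genes at most 0.5-fold, in 63.0% of the 135 found for genes at least 2-fold higher, and in 62.8% of the 8524 found for all genes measured. For TGANTCA these shares were 9.73%, 8.15% and 4.998%. For the ETS core CCGGAAG they went the other way, at 9.51%, 11.1% and 19.4%. For the TEAD core GGAATG they were 15.3%, 11.9% and 11.7%.

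Transport and metabolism differed gene by gene. Aqp5, at chr15:99590782-99594829, was at 1034 CPM in NC-Foxc2-/- cells and 3068 CPM in control cells, a ratio of 0.337 (0.328 to 0.346), and 0.652, 0.782 and 0.694 in the Krt12 bins. Its relative Aqp3, an aquaglyceroporin, had 1.23, and of 20 transport genes Slc4a7, a bicarbonate cotransporter gene, was the only one at least 2-fold higher (2.32, but 1.79 with Krt12 bins weighted to the control mix). The glutathione transferase genes Gsta4 and Gsto1 had ratios of 0.455 and 0.472, the only genes at most 0.5-fold among 25 of oxidant defence. With sub-clusters weighted to the control mix Gsta4 was at 0.712 and Gsto1 at 1.08, and with Krt12 bins so weighted at 0.854 and 0.717. Of 28 hypoxia and glycolysis genes 2 were at least 2-fold higher, 1 was at most 0.5-fold and 16 were below 1, with a median log2 ratio of -0.13. Hk2, a hexokinase gene, had 2.07, while Aldoc had 0.475 and Gapdh 0.617, and the hypoxia-responsive genes Vegfa and P4ha1 had 1.98 and 1.97. Matched for Krt12 bins, Hk2, Vegfa and P4ha1 had 1.39, 1.30 and 1.1997, and Aldoc 0.518.

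Of 26 interferon-response genes measured, 7 were at most 0.5-fold and none at least 2-fold higher, with a median log2 ratio of -0.65. Ifitm1, an antiviral membrane protein gene, was at 417 CPM in NC-Foxc2-/- cells and 1322 CPM in control cells (0.315, 0.303 to 0.328), and its ratios by Krt12 bin were 0.333, 0.359 and 0.207. The transcription factor gene Irf7 had 0.353, and Isg15, Ifit1, Oas1a and Tap1 lay between 0.271 and 0.436. At a control mix of sub-clusters Ifit1 was at 1.05, Tap1 at 0.735, Ifitm1 at 0.711 and Irf7 at 0.566, and the median of the list was -0.31. With Krt12 bins so weighted Isg15 was at 0.774, Ifit1 at 0.663 and Irf7 at 0.550, and the median was -0.68. In keratocytes Ifitm1 had a ratio of 0.752, Isg15 of 0.402 and Ifit1 of 0.922. Ifitm1 was detected in 56.6% of NC-Foxc2-/- and 81.0% of control cells, and in 43.0% and 72.1% after thinning.

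The alarmin, cytokine and protease inhibitor genes moved in both directions, with 5 of 27 at least 2-fold higher and 6 at most 0.5-fold. Cxcl1, a neutrophil-attracting chemokine, was at 74.1 CPM in NC-Foxc2-/- cells and 23.2 CPM in control cells (3.198, 2.82 to 3.62). Its ratio was 1.64 with Krt12 bins weighted to the control mix and 1.76 among cells with at least 100 Krt12 UMIs per 10000, under the 2-fold limit in both. S100a9 had 2.82, although 5 cells held 76.1% of its NC-Foxc2-/- UMIs, and the 5 neutrophil markers, of which S100a8 and S100a9 are part, summed to 77.7 CPM in NC-Foxc2-/- mice and 29.1 CPM in control mice with Retnlg and Csf3r at 0 in both. Il6 had 5.13 (3.53 to 7.48), with 48.5% of its 66 NC-Foxc2-/- UMIs in 1 cell, and 2.74 with Krt12 bins so weighted, where S100a9 had 1.83. Defb1, a defensin gene, was at 40.4 CPM in NC-Foxc2-/- cells and 124 CPM in control cells (0.326), and Wfdc18 and Serpinb1a had 0.0345 and 0.253. Serpinb3a (0.250), Defb1 and Serpinb1a were at 1.96, 1.02 and 0.801 with sub-clusters weighted to the control mix.

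Among matrix proteases and their inhibitors, Plau and Timp1 were at least 2-fold higher. Plau, which encodes urokinase, had a ratio of 3.21 (2.49 to 4.12), its receptor gene Plaur 1.88, Plat 1.88 and Timp1 2.49, whereas the serine protease gene Prss27 had 0.0928. Timp1 had 1.68 with Krt12 bins and 1.57 with sub-clusters weighted to the control mix, and Prss27 had 0.230 and 0.686. The receptor gene Plaur was at 191 CPM in NC-Foxc2-/- cells and 102 CPM in control cells. Of 15 YAP and TEAD pathway genes F3 was at least 2-fold higher, and the list's median log2 ratio was 0.47, with Ccn1 at 1.73 and Ccn2 at 1.78. Krt12 bins weighted to the control mix gave a median of 0.25, with Ccn1 at 1.19 and Ccn2 on the other side of 1, at 0.761. Ccn2 had 0.409 among cells with at least 100 Krt12 UMIs per 10000 and 5.37 without the 2 sub-clusters led by stromal, mural and pigment genes. At matched Krt12, the matrix protein gene Thbs1, with 2.01 over all cells, had 1.27, 0.765 and 0.846. Without those 2 sub-clusters Thbs1 had 2.78.

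Signalling lists held few genes past the 2-fold limit. In the Notch list the ligand gene Dll1 (2.01) and the effector gene Rbpj (2.13) were higher, and the target genes Nrarp (0.210) and Hey1 (0.273) were lower. Nrarp was detected in 14.3% of NC-Foxc2-/- and 41.1% of control cells. Matching the Krt12 bins put Dll1 at 1.46, Rbpj at 1.41 and Nrarp at 0.388, and matching the sub-clusters put them at 1.51, 1.72 and 0.518. Hey1 rested on 3 NC-Foxc2-/- UMIs. In the Wnt and BMP list Fst, which encodes the activin antagonist follistatin, was at 98.7 CPM in NC-Foxc2-/- cells and 30.7 CPM in control cells (3.22, 2.89 to 3.58), and Wnt11 had 2.35. Fst had 2.07 and Wnt11 1.78 with Krt12 bins weighted to the control mix. The neurotrophin gene Ntf3 had 2.24 and the netrin gene Ntn4 2.12, out of 24 innervation genes, and 1.61 and 1.76 with Krt12 bins so weighted. Of 15 genes of EGF receptor signalling only Btc (0.314, on 8 NC-Foxc2-/- UMIs) was past the limit.

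Growth and stress lists held few genes past the limit. None of 27 cell cycle genes was past the 2-fold limit in either direction, with Mki67 at 33.0 CPM in NC-Foxc2-/- cells and 21.4 CPM in control cells and Top2a at 29.0 CPM in NC-Foxc2-/- cells and 27.0 CPM in control cells. The ratio of Top2a was 1.07, but 0.782 with Krt12 bins weighted to the control mix. None of 20 heat shock genes, 24 lipid and cholesterol genes and 14 retinoid and FGF genes was past it. Of 26 immediate early genes Egr2 (2.14) and Egr3 (2.60) were higher and Klf4 lower, and with Krt12 bins so weighted Egr2 had 1.96 and Egr3 1.82. The metallothionein genes Mt1 and Mt2 had 1.46 and 1.66 in Krt12-high cells, and Mt4 had 5.31, but 1 NC-Foxc2-/- cell held 93.5% of Mt4 UMIs. The clock gene Bhlhe41 had 2.35 and was the only one of 18 clock genes past the limit, with 1.81 at matched Krt12 bins.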

How the data were processed

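Anterior eye segments were measured by 3' droplet single-cell RNA sequencing, with 1 library per condition. The authors deposited raw UMI counts per gene and barcode, from Cell Ranger 4.0.0 on mm10 per the labels, for barcodes taken as cells. The sources used here give no annotation release. A separate cell table was not used here. The paper's removal of doublet clusters was not repeated. Doublets were called with Scrublet in scanpy 1.11.5 and kept.

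UMIs of the Krt12-high cells were summed per library and scaled to 1000000 (CPM). Summed depth was 6008036 and 25690756 UMIs in NC-Foxc2-/- and control cells. CPM have exact Poisson intervals, and ratios and shares have exact binomial (Clopper-Pearson) intervals at 95%. Cells are not replicates, so no p-value was computed. Genes with 50 or more UMIs in both libraries together were measured, and the limit was a ratio of 2 upward or 0.5 downward. Where 1 library had no UMI the bound used a floor of 3 counts. The fold rule and the intervals were tested on simulated data with independent Poisson counts. Those counts lacked the concentration of UMIs in single cells seen here, so the test does not cover it. Sub-clusters came from leidenalg 0.10.2 at resolution 0.5 on 15 principal components. Python 3.11.15, NumPy 2.4.6, SciPy 1.17.1 and pandas 2.3.3 were used. Gene positions are from GENCODE for GRCm38 and promoters from RefSeq, of which 8524 matched the 10783 genes measured.

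Named are the 10 highest and 10 lowest ratios of genes that reached 100 UMIs and 100 CPM in the higher library (haemoglobin, mitochondrial, ribosomal protein, Y-linked, Xist and Tsix genes left out); the 2 highest and 2 lowest of each of 27 lists; the 15 most abundant genes; the 15 genes furthest above other Cdh1+ cells; markers; and Foxc2; some of these are not reported here. Other genes were chosen after their values were seen, as were the genes of the Krt12 gradient. The members and lists were chosen with earlier results of these data known. Alternatives changed the Krt12, mitochondrial, depth, UMI and fold limits, doublets, scaling, thinning and the weighting of cells. Weighting to the Krt12 mix and leaving out 2 sub-clusters were added after the data were seen.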

Additional observations from a re-analysis of the deposited data

How the results depend on the processing

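With 1 library per condition no library could be left out. No paired analysis was possible because each condition has 1 library. Of 104 genes past the 2-fold limit that the rule or the text names, 86 kept their direction with sub-clusters weighted to the control mix and 101 with Krt12 bins so weighted, and 40 and 50 were still past the limit. The sub-cluster weighting rests in part on 2 sub-clusters with 5 NC-Foxc2-/- cells each, and the sub-clusters were found on the same expression. The Krt12 weighting rests in part on the 25 NC-Foxc2-/- cells of the high bin. The share ratio of 0.273 was 0.149 for cells with at least 100 Krt12 UMIs per 10000. Against 195 higher and 625 lower genes there were 51 and 174 with each cell thinned to 1000 UMIs, 334 and 954 at 20 or more UMIs, 81 and 286 at 200 or more, and 890 and 1561 at 1.5-fold. With Krt12 bins weighted to the control mix the higher genes numbered 297 and the lower genes 904. List medians below 0 numbered 8 of 27 with sub-clusters weighted to the control mix, against 13. That weighting also turned Serpinb3a to 1.96, Elf5 to 1.63, Grhl3 to 1.57, Hopx to 1.01, Cldn3 to 1.15, Cldn4 to 1.09, Nectin4 to 1.10, Muc4 to 1.05, Muc15 to 1.53, Ceacam1 to 1.24, Defb1 to 1.02, Ifit1 to 1.05, Gsto1 to 1.08, Krt4 to 2.41, Krt13 to 2.12, Krt15 to 1.69, Krt19 to 2.70 and Krt80 to 1.54. Krt12 bins so weighted turned Tjp3 to 1.03, Muc15 to 1.36, Pgf to 0.885 and Ccn2 to 0.761, and Krt12 of at least 100 turned Mt4 to 0.332, Krt4 to 3.37 and Krt19 to 1.07. The causes were not tested. Rare transcripts rest on few cells, and depth limits them.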

Other observations

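Other abundant transcripts of Krt12-high cells lay on both sides of 1. Tmsb4x, which encodes thymosin beta 4, was at 17188 CPM in NC-Foxc2-/- cells and 20638 CPM in control cells. S100a6, a calcium-binding protein gene, was at 19404 CPM in NC-Foxc2-/- cells and 15130 CPM in control cells. The actin gene Actb was lower, at 3152 CPM in NC-Foxc2-/- cells and 5892 CPM in control cells (0.535), and Actg1 had 0.674. Malat1, a nuclear noncoding RNA, was at 10669 CPM in NC-Foxc2-/- cells and 6505 CPM in control cells, a ratio of 1.64, and had 1.41 in keratocytes.

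Cells with at least 30 Krt12 UMIs per 10000 but no Cdh1 UMI were not counted as Krt12-high. There were 102 of them in NC-Foxc2-/- mice, 26.0% of all cells with that much Krt12, and 410 in control mice, 28.0%. Their median depth was 14376.5 UMIs in NC-Foxc2-/- mice and 17684 UMIs in control mice, under that of Krt12-high cells in either library.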
